A study of Mus musculus with 22 samples.

Results

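The comparison described here asks what of the difference between a fatty and a normal liver is seen in mice that ate the high-fat diet and also received DTMB. Of the 22 liver RNA-seq libraries of the series, 7 carry it: the 4 libraries labelled high-fat diet (HFD) with DTMB and the 3 libraries labelled normal diet (ND) with vehicle, all of the HFD cohort. The members are all libraries that the labels place in these 2 groups. All mice were wild-type male C57BL/6J, and the labelled tissue is whole liver. The ND livers carry the disease label Normal and the HFD livers the label MASLD (metabolic dysfunction-associated steatotic liver disease). DTMB is named in the labels by these letters alone, and mice received it orally, 10 mg/kg each day. The sources used here do not give the ages, the length of the diet and of the dosing, or the hour at which livers were taken. The contrast uses none of the 4 HFD livers given vehicle, but these 11 libraries were fitted together, and the vehicle livers are set beside the DTMB livers where that shows which part of the diet difference is still present. Diet and compound both differ between the DTMB and ND livers, so their parts cannot be told apart within this contrast.

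A fatty liver is a liver whose hepatocytes store triglyceride in lipid droplets. Under a fat-rich diet hepatocytes are known to change the balance of fatty acid synthesis, storage and oxidation, and interferon-responsive, inflammatory and collagen genes can rise as steatosis turns towards steatohepatitis and fibrosis. Many metabolic genes of the liver also follow the circadian clock, the daily transcription cycle that feeding helps to set.

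Library totals in the cohort ran from 53647545 to 64420632 counts, and levels are given as CPM, counts per 1000000 counts of the library size after scaling by TMM factors. Albumin (Alb), the main plasma protein made by hepatocytes, stood at 66934, 80904 and 55353 CPM in the 3 ND libraries and at 65569, 60630, 70668 and 58513 CPM in the 4 DTMB libraries. All 7 libraries held this defining marker of the labelled tissue at high and overlapping levels. Several libraries also held transcripts of neighbouring tissues. Summed over a list of pancreatic acinar genes, 2 ND libraries had 1708 and 1547 CPM and 1 DTMB library had 2278 CPM, as did vehicle libraries with 538.2 and 3562 CPM, while the other libraries had 7.85 to 22.58 CPM. A skeletal muscle and mesothelium list summed to 348.8 CPM in ND replicate 1 and to 2.025 to 8.645 CPM elsewhere. Of its 12 tested members 7 were lower in DTMB livers, and none without ND replicate 1, DTMB replicate 3 or DTMB replicate 4, 1 without DTMB replicate 1 and 2 without DTMB replicate 2. Replicates are labelled as biological replicates. The labels do not say how the animals were housed or handled, so effects of these cannot be told apart from the group differences. The p-values set a group difference against the spread between libraries within the groups of the cohort. In bulk liver RNA, fewer cells of a type and less RNA per cell cannot be told apart.

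Of 15597 genes tested, 4554 differed between DTMB and ND livers (29.2%; edgeR quasi-likelihood test, adjusted p under 0.05, here "called"). Of these, 2447 were higher in DTMB livers (15.7% of all genes tested) and 2107 lower (13.5%). The fold change was at least 2 in either direction for 872 of them (5.59%), 530 higher and 342 lower, and the median log2 fold change over all genes was 0.01. In the same fit, 4332 genes differed between the vehicle and ND livers (27.8%; 15.2% higher, 12.6% lower), with 850 higher and 289 lower by at least 2-fold (7.30%). These 2 contrasts share the ND libraries, so their values are given side by side only. Each list count below is to be read beside the share over all genes in the same contrast. The DTMB and vehicle livers differed from each other at 1978 genes (12.7%; 6.64% higher and 6.04% lower with DTMB), 62 of them higher and 215 lower by at least 2-fold (1.78%). With scaling by library size alone, the split of the vehicle contrast was 3361 higher and 1030 lower, and that of DTMB against vehicle was 406 higher and 2393 lower; the median of all genes then shifted to 0.14 and -0.17. The split of DTMB against ND remained near even under that scaling, at 2133 higher and 2065 lower. Leaving out the 5 acinar-rich libraries left 1 ND library, assumed to vary like the other groups, and 1022 genes called between DTMB and ND livers, 546 higher and 476 lower. Of the 127 called genes named here, 88 were also called without those libraries. Between DTMB and vehicle livers edgeR called 0 genes without them (2182 at an unadjusted p under 0.05), so every call of that direct test given here ends there. With scaling by library size alone, 49 of the 59 genes named here that were called in the direct test were still called. With TMM scaling, the direct test called 483 genes without vehicle replicate 1, 903 without vehicle replicate 2 and 656 without vehicle replicate 4. It called 957 without DTMB replicate 2, 797 without DTMB replicate 3 and 537 without DTMB replicate 4. The count was 2562 without vehicle replicate 3 and 2482 without DTMB replicate 1.

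**Figure D1:**
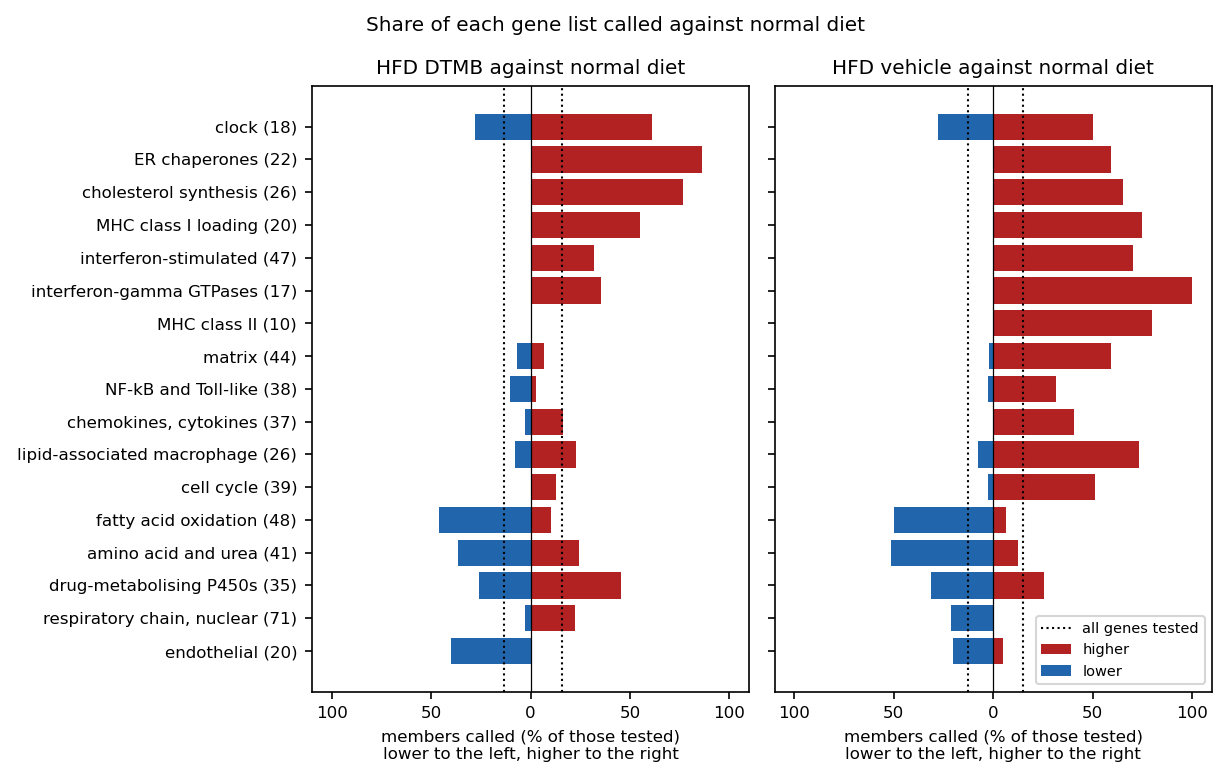
Share of the tested members of 17 gene lists that were called higher (red, to the right) or lower (blue, to the left) in the DTMB livers (left panel) and in the vehicle livers (right panel), each against the same 3 ND livers. Numbers in brackets are the members tested, and dotted lines mark the share over all genes tested (15.7% higher and 13.5% lower with DTMB, 15.2% and 12.6% with vehicle). In the left panel the ER chaperone, cholesterol synthesis and clock bars reach well past the dotted lines, and the matrix, NF-kB and MHC class II bars do not.

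The widest differences between DTMB and ND livers included a cytochrome P450, clock genes and the leptin receptor gene. Cyp2b9, a steroid- and drug-metabolising P450 that is female-biased in mouse liver, had 0.0619, 0.0960 and 0.313 CPM in the ND libraries and 39.1, 37.5, 67.4 and 16.7 CPM in the DTMB libraries, a log2 difference of 8.01 ± 0.88 (SE; 3 ND and 4 DTMB libraries; adjusted p = 7.55e-05). The groups did not overlap, which the choice of the widest differences required, and neither did those of 5516 of all genes tested (35.4%). With limma-voom the call was lost (8.24, adjusted p = 0.0591). Over the groups this was 26 ND counts against 9121 DTMB counts, a ratio of 267 per unit of library size (exact 95% interval 182 to 408, counting error only). Reads that fit both Cyp2b9 and its near copies may be split between them. Shisa8, of a family of transmembrane adaptor proteins, had 3 counts in all ND libraries and 289 in the DTMB libraries, a ratio of 73.2 (24.8 to 357). Hao2, a peroxisomal hydroxyacid oxidase, likewise had 3 counts against 191, a ratio of 48.4 (16.3 to 237), and its call was lost with limma-voom (adjusted p = 0.0923). Rgs16, a regulator of G protein signalling, rose by 3.30 ± 0.55, from 2.31, 8.50 and 14.1 CPM to 129, 62.7, 75.4 and 57.7 CPM. Car3, a carbonic anhydrase abundant in adipose tissue and muscle and also in hepatocytes, rose by 2.71 ± 0.29 on the log2 scale (adjusted p = 6.08e-05). The adipocyte-defining genes Adipoq and Plin1 were at or under 3.65 and 1.64 CPM in every library of the cohort.

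Lepr, the leptin receptor gene (chr4:101717137-101815352, mm10), was the receptor gene among the large falls. Its ND libraries had 20.5, 44.9 and 27.8 CPM and its DTMB libraries 2.98, 2.23, 2.55 and 4.05 CPM, so that every DTMB library was far under every ND library. The log2 difference was -3.39 ± 0.25 (adjusted p = 1.10e-05), and that of the vehicle livers was -3.63. DTMB and vehicle livers did not pass the test against each other for Lepr (0.25 ± 0.24, adjusted p = 0.509). Smad9, a transcription factor of the bone morphogenetic protein pathway, fell by 3.22 ± 0.25, from 18.8, 26.2 and 23.8 CPM to 2.5, 3.1, 2.02 and 2.2 CPM. Tuba8, a tubulin, fell by 3.95 ± 0.31. Cpne5 (-4.27), A1bg (-3.76), the glycogen-targeting phosphatase subunit Ppp1r3g (-3.75), the dicarboxylate transporter Slc13a2 (-3.18) and the collagen-binding integrin subunit Itga2 (-3.09) were the other large falls. These 7 genes and Lepr were chosen from called genes whose DTMB and ND libraries did not overlap, so that separation follows from the choice. Each of the 7 was also called lower in the vehicle livers.

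The genes of the circadian clock differed as a group. Of 18 clock genes tested, 11 were higher and 5 lower in DTMB than in ND livers, with a median log2 difference of 1.01 beside 0.01 over all genes. The vehicle livers had 9 higher and 5 lower, with a median of 0.60. In most members the DTMB livers were on the same side of ND as the vehicle livers, and 6 members differed between DTMB and vehicle livers, 5 higher and 1 lower with DTMB.

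The proline- and acid-rich bZIP factors, which bind D-box elements and carry the clock's rhythm to metabolic genes, were all higher. Dbp (chr7:45705100-45710203) stood at 0.991, 0.940 and 0.736 CPM in ND livers and at 18.4, 24.3, 41.7 and 36.9 CPM in DTMB livers. That is a log2 difference of 5.09 ± 0.52 (adjusted p = 5.07e-05), with no overlap. The vehicle livers lay between at 6.02, 6.85, 10.6 and 22.5 CPM, and the difference between DTMB and vehicle was 1.40 ± 0.38 (adjusted p = 0.0343). Tef rose from 36.6, 34.2 and 28.0 CPM to 91.7, 101, 129 and 106 CPM (1.70 ± 0.14, adjusted p = 1.83e-05), again above the vehicle livers, at 56.9 to 77.8 CPM (0.68 ± 0.13, adjusted p = 0.0110). Hlf, the third of these factors, rose by 0.79 ± 0.08.

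Several repressors of the loop were higher too, and the repressor genes Cry1 and Nfil3 were lower. Nr1d1, which encodes the haem-sensing receptor REV-ERBalpha, had 7.17, 6.12 and 16.3 CPM in ND and 98.4, 90.4, 58.7 and 91.6 CPM in DTMB livers (3.10 ± 0.33, adjusted p = 5.82e-05). Ciart, which encodes a repressor of CLOCK and BMAL1, rose by 3.66 ± 0.56, from at most 0.759 CPM to at least 4.25 CPM. Nr1d2, Per2, Per3, Cry2, Bhlhe40 and Bhlhe41 were also called higher. The genes of the activating arm were lower. Npas2, a partner of BMAL1, had 6.91, 5.70 and 6.64 CPM in ND and 0.917, 1.41, 0.922 and 0.965 CPM in DTMB livers (-2.61 ± 0.24, adjusted p = 2.64e-05). Arntl, which encodes BMAL1, fell by 1.81 ± 0.23, from 26.0 to 29.0 CPM down to 5.38 to 11.2 CPM, and Clock fell by 0.47 ± 0.11. The repressor genes Cry1 (-1.62) and Nfil3 (-0.77) were the other 2 called lower, and Per1 (0.25) did not pass the test.

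**Figure D2:**
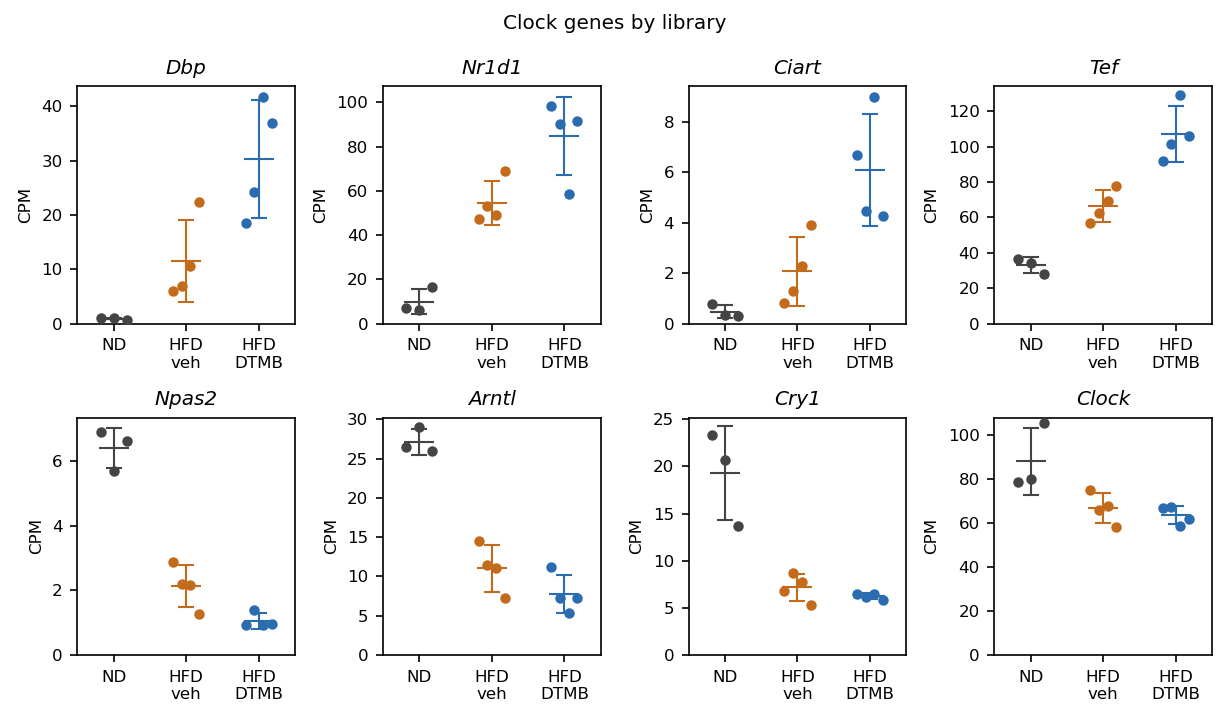
CPM of 8 clock genes in each library of the 3 groups, normal diet (ND, 3 libraries), HFD with vehicle and HFD with DTMB (4 libraries each), on linear axes from 0. Points are libraries, the horizontal mark is the group mean and the bars are 1 SD. Dbp, Nr1d1, Ciart and Tef rise from left to right, and Npas2, Arntl, Cry1 and Clock are highest in ND.

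The promoters of the genes that moved together are shown with the E-box, the 6 letters CACGTG that CLOCK and BMAL1 are known to bind. It reads the same on both strands. In RefSeq promoter windows of the GRCm38.p6 (mm10) assembly, covering 250 bases before each start, the letters stood in 5 of the 15 clock genes with a window (33.3%: Bhlhe41, Ciart, Cry1, Per1 and Tef), beside 9.41% of the 11748 tested genes with a window and 6.02% of all 32851 windows. The share was 5 of 18 (27.8%) in the cholesterol synthesis list. The letters TAGGTCA, which ROR and REV-ERB receptors are known to bind, searched on both strands, stood in 1 of the 15 clock windows (6.67%) and in 2.23% of all windows. The E-box stood in genes that rose (Bhlhe41, Ciart and Tef), in Cry1, which fell, and in Per1, which was not called. The stretch of Ciart (chr3:95882252-95882359, minus strand) holds 3 E-boxes and that of Tef (chr15:81802531-81802566, plus strand) holds 1, in capitals:
Ciart: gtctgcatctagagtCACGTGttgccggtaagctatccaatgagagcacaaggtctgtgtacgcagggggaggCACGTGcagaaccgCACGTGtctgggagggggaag
Tef: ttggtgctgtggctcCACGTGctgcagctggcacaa

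Chaperones of the endoplasmic reticulum (ER), which fold secreted proteins and rise in the unfolded protein response, were higher in DTMB livers. Of 22 such genes tested, 19 were higher and none lower than in ND livers, with a median log2 difference of 0.67, and 18 of the 19 calls were also made without the acinar libraries. Vehicle livers had 13 higher, with a median of 0.37. In the direct test, 13 of the 22 were higher in DTMB than in vehicle livers and none lower; with scaling by library size alone this was 4 higher and none lower, and the direct calls of Hspa5, Manf and Pdia6 were not made.

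Hspa5 (chr2:34772090-34776529), which encodes BiP, the main Hsp70 chaperone of the ER, had 737, 524 and 804 CPM in ND livers and 1359, 1238, 1400 and 1328 CPM in DTMB livers (0.95 ± 0.13, adjusted p = 3.23e-04). All DTMB libraries were above all ND and all vehicle libraries, and DTMB differed from vehicle by 0.39 ± 0.12 (adjusted p = 0.0495). Creld2, a small ER-resident isomerase-like protein, had 37.2, 18.9 and 33.2 CPM in ND and 97.5, 80.3, 117 and 91.3 CPM in DTMB livers. Its difference from ND was 1.70 ± 0.21 (adjusted p = 1.48e-04) and from vehicle 0.97 ± 0.18 (adjusted p = 0.0115), with vehicle livers at 41.9 to 55.9 CPM. Manf, a secreted ER stress protein, rose by 1.48 ± 0.17, the disulfide isomerase Pdia6 by 0.77 ± 0.10, and Xbp1, a transcription factor of the response, by 0.70 ± 0.10. Xbp1 was not called in the vehicle livers (0.19, adjusted p = 0.147) and differed between DTMB and vehicle by 0.51 ± 0.09 (adjusted p = 0.0101). Retreg1, a receptor for the degradation of ER by autophagy, and Selenos, a protein of ER-associated degradation, were higher in DTMB livers than in either other group, by 0.37 ± 0.13 and 0.36 ± 0.09 against ND. The call for Retreg1 was lost without ND replicate 2 or 3 or DTMB replicate 2, 3 or 4, with values of 0.24 to 0.42.

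The ER stress response element was searched on both strands as CCAAT and CCACG with any 9 bases between them. It stood in 9 of the 20 chaperone genes with a window (45.0%), beside 0.179% of tested genes and 0.113% of all windows. Of these carriers, Canx (0.17, adjusted p = 0.226) and Dnajc3 (0.12, adjusted p = 0.310) were not called against ND, and the others were called higher. The stretches of Hspa5 (chr2:34772013-34772055), Creld2 (chr15:88819508-88819550) and Pdia6 (chr12:17266479-17266521), all on the plus strand, show the element in capitals, with Creld2 in the reverse orientation:
Hspa5: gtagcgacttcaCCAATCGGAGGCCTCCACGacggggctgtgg
Creld2: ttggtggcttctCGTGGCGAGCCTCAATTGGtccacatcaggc
Pdia6: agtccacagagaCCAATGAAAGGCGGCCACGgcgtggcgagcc

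Genes of cholesterol synthesis and uptake, which are known to be driven by the sterol-regulated transcription factor SREBP-2, were higher in DTMB than in ND livers. Of 26 tested, 20 were higher and none lower, with a median log2 difference of 0.79. The vehicle livers had 17 higher and a median of 0.81, and 2 members were higher in DTMB than in vehicle livers. With scaling by library size alone this direct count turned to none higher and 2 lower. Without the acinar libraries 10 of the 26 were called. Mvd, the mevalonate diphosphate decarboxylase, had 1.44, 1.17 and 1.36 CPM in ND and 8.97, 6.30, 4.44 and 7.01 CPM in DTMB livers (2.33 ± 0.26, adjusted p = 8.82e-05). Msmo1, a sterol demethylase, had 13.6, 25.4 and 20.8 CPM in ND and 97.7, 118, 58.4 and 112 CPM in DTMB livers (2.27 ± 0.29), and the groups of both genes did not overlap. Mvk, the mevalonate kinase, rose by 1.56 ± 0.19. Insig1, which holds the SREBP precursor in the ER, rose from 41.5, 52.1 and 64.6 CPM to 149, 149, 125 and 156 CPM (1.46 ± 0.17), and was also higher than in vehicle livers (0.51 ± 0.15, adjusted p = 0.0428), a call lost with scaling by library size alone (0.37, adjusted p = 0.0795). A sterol element, searched on both strands as ATCAC directly followed by CCCAC, was in none of the 18 windows of the list and in 0.0731% of all windows.

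Fatty acid oxidation genes, many of them known targets of the receptor PPARalpha, were lower. Of 48 tested, 22 were lower and 5 higher in DTMB livers, with a median of -0.26, and the vehicle livers had 24 lower and 3 higher, with a median of -0.32, or 15 lower and 5 higher with a median of -0.20 under scaling by library size alone. DTMB and vehicle livers differed at 3 of the 48, 2 higher and 1 lower, or 2 higher and 3 lower under that scaling. Without the acinar libraries 5 were called lower. The 5 rises were 1 without ND replicate 1 and 3 without ND replicate 2 or DTMB replicate 4. Ehhadh (chr16:21761285-21787834), the peroxisomal bifunctional enzyme, had 3864, 3468 and 4512 CPM in ND livers and 642, 613, 511 and 915 CPM in DTMB livers, a difference of -2.56 ± 0.19 (adjusted p = 1.10e-05). The vehicle livers were at 486 to 767 CPM, and DTMB and vehicle did not pass the test against each other (0.06 ± 0.17, adjusted p = 0.857). Acot2, a mitochondrial acyl-CoA thioesterase, fell from 126, 80.8 and 123 CPM to 31.7, 29.7, 22.3 and 45.4 CPM (-1.77 ± 0.24). The mitochondrial dehydrogenase Hadh went the other way, by 0.67 ± 0.07, from 320, 352 and 345 CPM to 511, 516, 539 and 589 CPM.

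Fatty acid and triglyceride synthesis genes moved in both directions, with 9 of 28 higher and 5 lower in DTMB than in ND livers and a median of -0.14. Thrsp, a lipogenic factor, rose by 2.90 ± 0.44 and the triglyceride-forming acyltransferase Dgat2 by 0.89 ± 0.08. The acetyl-CoA carboxylase gene Acacb fell by 1.95 ± 0.20, from 121, 87.7 and 98.1 CPM to 36.7, 21.2, 22.7 and 25.1 CPM, and the malic enzyme gene Me1 by 0.84 ± 0.09. Acacb and Me1 were also lower in DTMB than in vehicle livers (-0.60 and -0.44), and Dgat2 was higher (0.32), a call lost with scaling by library size alone (0.17, adjusted p = 0.126). Fasn, the fatty acid synthase (-0.13, adjusted p = 0.661), and Scd1, a desaturase (-0.27, adjusted p = 0.595), did not pass the test against ND.

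Lipid droplet and fatty acid uptake genes were likewise split, with 7 of 32 higher and 8 lower, or 4 and 5 without ND replicate 1. With all libraries these are 21.9% and 25% of the list, beside 15.7% and 13.5% of all genes. Cidec (chr6:113424634-113435760), whose protein fuses lipid droplets, had 85.1, 52.1 and 50.5 CPM in ND livers and 15.3, 9.38, 9.35 and 8.24 CPM in DTMB livers. All DTMB libraries were under all ND libraries and under all vehicle libraries, at 28.6 to 55.5 CPM. The difference was -2.56 ± 0.27 from ND (adjusted p = 5.78e-05) and -1.90 ± 0.25 from vehicle (adjusted p = 5.23e-03), while vehicle and ND did not pass the test (-0.67, adjusted p = 0.0767). Its relative Cidea had 0.465, 0.134 and 0.460 CPM in ND and 0.557, 0.302, 0.741 and 0.237 CPM in DTMB livers, overlapping groups (0.37 ± 0.55, adjusted p = 0.662), beside 2.37 to 7.38 CPM in vehicle livers. Fitm1, a droplet-budding factor, rose by 1.17 ± 0.15, and Pnpla2, the adipose triglyceride lipase, fell by 0.88 ± 0.12. Pparg, a lipogenic receptor that was called in vehicle livers (0.73), was not called against ND (0.10 ± 0.18, adjusted p = 0.715).

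Glucose metabolism genes moved in both directions. Of 32 tested, 11 were higher and 7 lower in DTMB than in ND livers, with a median of -0.03. These are 34.4% and 21.9% of the list, beside 15.7% and 13.5% of all genes. The UDP-glucose enzyme Ugp2 rose (1.07 ± 0.09), and the glycogen synthase Gys2 (-0.42 ± 0.08) and the glycolytic kinase Pgk1 (-0.37 ± 0.06) fell.

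Among 26 genes of leptin, insulin and growth hormone signalling, 7 were higher and 7 lower (26.9% each, beside 15.7% and 13.5% of all genes). Besides Lepr, the insulin receptor substrate Irs2 fell from 40.0, 59.0 and 44.4 CPM to 13.7, 12.9, 8.31 and 17.1 CPM (-1.88 ± 0.21) and the insulin-repressed Igfbp1 fell by 1.97 ± 0.44. The growth hormone receptor Ghr rose by 0.89 ± 0.08.

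**Figure D3:**
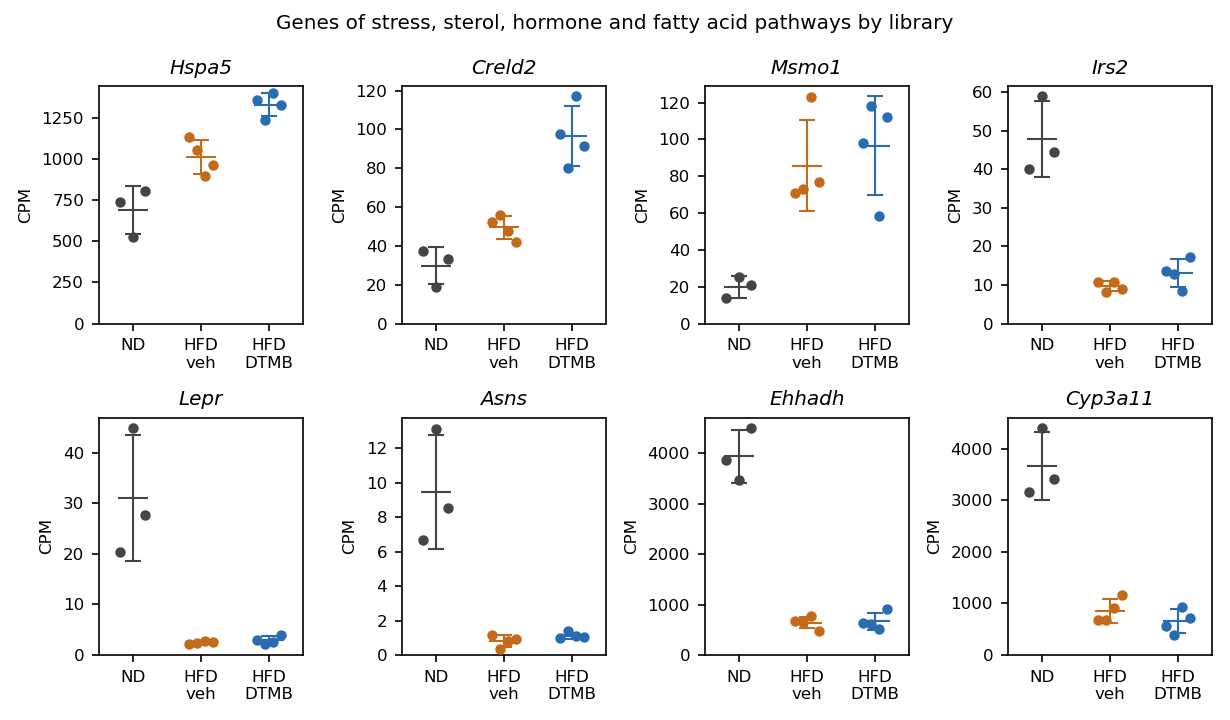
CPM of 8 genes of the ER, sterol synthesis, insulin, leptin and amino acid pathways, fatty acid oxidation and drug metabolism in each library of the 3 groups, on linear axes from 0; points are libraries, the horizontal mark is the group mean and the bars are 1 SD. Hspa5, Creld2 and Msmo1 are higher and Irs2, Lepr, Asns, Ehhadh and Cyp3a11 lower in both HFD groups than in ND.

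Amino acid metabolism was lower more often than higher. Of 41 genes of amino acid breakdown and the urea cycle, 15 were lower and 10 higher in DTMB livers (median -0.13), beside 21 lower and 5 higher in vehicle livers (median -0.43), and 9 members were higher and 1 lower in DTMB than in vehicle livers. With scaling by library size alone the vehicle livers had 19 lower and 9 higher, and the direct test gave 5 higher and 3 lower. The 10 rises were 6 without ND replicate 1 and 4 without ND replicate 3. Sdsl, a serine dehydratase-like enzyme, had 33.4, 33.0 and 24.7 CPM in ND and 7.37, 7.31, 7.11 and 7.68 CPM in DTMB livers (-2.04 ± 0.10, adjusted p = 1.60e-06). Mat1a, which makes S-adenosylmethionine in hepatocytes, fell by 0.92 ± 0.11, from 9744, 10662 and 8049 CPM to 5398, 5539, 4176 and 4984 CPM. Haao, of tryptophan breakdown, and Otc, of the urea cycle, rose by 0.79 ± 0.07 and 0.58 ± 0.07. Nnmt, the nicotinamide methyltransferase, was called lower in vehicle livers (-0.91) and was not called in DTMB livers (-0.15 ± 0.09, adjusted p = 0.249); the direct difference was 0.76 ± 0.09 (adjusted p = 4.10e-03).

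Asns, which encodes asparagine synthetase, a textbook target of the amino acid stress factor ATF4, had 6.67, 13.1 and 8.55 CPM in ND livers and 0.971, 1.37, 1.12 and 1.03 CPM in DTMB livers (-3.07 ± 0.32, adjusted p = 5.78e-05). All 4 DTMB libraries were under all ND libraries. The ATF4-related list as a whole was split, with 7 of 28 higher and 3 lower: Atf5, a transcription factor, fell by 1.10 ± 0.18, Shmt2, a mitochondrial serine enzyme, rose by 0.47 ± 0.08, and Trib3, a pseudokinase, rose by 1.11 ± 0.21 and was higher than in vehicle livers (0.87, adjusted p = 0.0184). The letters TGATGNAAC of the amino acid response element, searched on both strands, were in 3 of the 25 windows of the list (12%: Asns, Chac1 and Vldlr) and in 0.712% of all windows. The stretch of Asns (chr6:7693210-7693247, minus strand) is shown because the gene fell while it holds the element, in capitals, and Chac1 (1.84) and Vldlr (0.84), which hold it too, were higher, Chac1 without a call when ND replicate 1 was left out (1.49):
Asns: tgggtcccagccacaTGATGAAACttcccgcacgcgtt

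Interferon-responsive genes were higher than in ND livers in part. Of 47 interferon-stimulated genes tested, 15 were higher and none lower in DTMB livers, with a median log2 difference of 0.47, beside 33 higher and a median of 0.86 in vehicle livers. In the direct test 14 were lower and none higher in DTMB than in vehicle livers, against 6.04% lower over all genes. Under scaling by library size alone 24 of the 47 were lower, beside 2393 of all 15597 genes. Without the acinar libraries 7 were called higher than in ND. The genes called included antiviral effectors of the IFIT family, which bind foreign RNA: Ifit3 had 6.67, 6.14 and 10.3 CPM in ND and 27.0, 20, 27.4 and 23.5 CPM in DTMB livers (1.67 ± 0.20, adjusted p = 1.18e-04), and Ifit1 had 6.43, 8.41 and 10.5 CPM and 27.0, 19.8, 30.4 and 24.8 CPM (1.59 ± 0.19). For both genes every DTMB library was above every ND library, and neither passed the test against vehicle livers (-0.46, adjusted p = 0.0947, and -0.26, adjusted p = 0.310). Ifit3b, a near copy of Ifit3 that may share its reads, rose by 1.91 ± 0.22, and Isg15, a ubiquitin-like modifier, by 1.04 ± 0.17.

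The interferon-gamma-inducible GTPases, which attack membranes of intracellular pathogens, had 6 of 17 higher in DTMB livers with a median of 0.81, and all 17 higher in vehicle livers with a median of 1.65. In DTMB livers 12 of the 17 were lower than in vehicle livers (70.6%, beside 6.04% of all genes). Without ND replicate 1, 2 of the 17 were called higher than in ND, without ND replicate 2, 3 were, and without the acinar libraries 3 were. Gbp10 (chr5:105215699-105239533) had 3.92, 3.59 and 7.12 CPM in ND, 24.2, 13.5, 21.9 and 16.3 CPM in DTMB and 30.3 to 110 CPM in vehicle livers, 3 groups that did not overlap. It was 1.96 ± 0.42 above ND (adjusted p = 4.43e-03) and 1.64 ± 0.37 under vehicle on the log2 scale, that is -1.64 (adjusted p = 0.0191). Gbp11 (1.46 ± 0.23), which is annotated as a transcribed pseudogene, and Gbp7 (0.85 ± 0.24) were the others of smallest p. Gbp7 lost the call without ND replicate 1 (0.71), without ND replicate 3 (0.85) or with limma-voom (0.81).

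Antigen presentation genes of both classes had medians above that of all genes, and class I genes passed the test against ND. Of 20 genes of MHC class I and its peptide loading, 11 were higher in DTMB than in ND livers (median 0.34) and 15 in vehicle livers (median 0.54). The immunoproteasome subunit gene Psmb9 had 3.86, 5.93 and 5.35 CPM in ND and 15.9, 11.4, 14.7 and 11.9 CPM in DTMB livers (1.42 ± 0.19, adjusted p = 2.78e-04), without overlap, and the class I gene H2-T22 rose by 0.93 ± 0.12. The protein disulfide isomerase Pdia3, a member of both the loading and the ER lists, rose by 0.62 ± 0.10. Another gene called higher is also in both, so the counts of these lists overlap. Of 10 MHC class II genes none was called in either direction against ND by edgeR, although the median was 0.39, and the difference between the classes was not tested. Of the 10, 8 were higher in vehicle livers with a median of 1.41; 6 were lower in DTMB than in vehicle livers. H2-Aa, a class II chain, had 13.4, 10.5 and 14.8 CPM in ND and 22.7, 14.6, 21.9 and 10.6 CPM in DTMB livers, which overlap (0.44 ± 0.35, adjusted p = 0.391), and 17.9 to 62.2 CPM in vehicle livers.

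The interferon-stimulated response element was searched on both strands as GAAA and GAAA with any 2 bases between. It stood in 13 of 32 interferon-stimulated genes with a window (40.6%), in 9 of 9 GTPases and in 3 of 18 class I genes (16.7%), beside 3.36% of tested genes and 2.98% of all windows. Of these carriers, the interferon-stimulated genes Bst2, Ifi203, Ifit1bl1, Oas1a, Oas1g, Oas3, Stat2 and Trim30a were not called against ND. The GTPases Gbp2, Gbp5, Igtp, Irgm1, Irgm2, Tgtp1 and Tgtp2 were not called either. The other carriers of these lists were called higher. Matches can overlap each other, as 3 do in Isg15. The stretches of Ifit3 (chr19:34583358-34583431, plus strand), Ifit1 (chr19:34640770-34640828, plus strand) and Isg15 (chr4:156200860-156200911, minus strand), 3 of the genes still called higher, carry it in capitals, and in both IFIT genes it lies in the reverse orientation:
Ifit3: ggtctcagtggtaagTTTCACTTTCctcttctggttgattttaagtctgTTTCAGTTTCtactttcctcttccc
Ifit1: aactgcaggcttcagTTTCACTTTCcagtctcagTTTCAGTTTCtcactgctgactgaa
Isg15: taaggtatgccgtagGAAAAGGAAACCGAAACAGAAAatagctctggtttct

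Few matrix genes of fibrosis differed between DTMB and ND livers. Of 44 genes of collagens, their cross-linkers and remodelling enzymes, 3 were higher and 3 lower in DTMB livers (each 6.82% of the list, with 5 lower without ND replicate 3), with a median of 0.01, equal to that of all genes to 2 decimals. In vehicle livers 26 were higher and 1 lower, with a median of 0.74. In the direct test 24 were lower and none higher in DTMB than in vehicle livers (54.5% lower, beside 6.04% of all genes). Col1a1, the main chain of fibrillar collagen, had 3.96, 2.96 and 1.82 CPM in ND, 6.08, 3.26, 4.87 and 1.96 CPM in DTMB and 9.89 to 24.9 CPM in vehicle livers. The ND and DTMB groups overlapped (0.47 ± 0.39, adjusted p = 0.411), and DTMB lay under vehicle (-2.10 ± 0.36, adjusted p = 9.87e-03). Col3a1 had 9.80, 9.52 and 10.2 CPM in ND and 20.9, 16.3, 23.1 and 10.9 CPM in DTMB livers, all DTMB libraries above all ND libraries, and did not pass the test (0.86 ± 0.31, adjusted p = 0.0574). Without DTMB replicate 4 Col3a1 was called, at 1.01.

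The matrix genes that did differ were of several kinds. Col5a3, a minor collagen chain, rose from 5.23, 6.08 and 5.50 CPM to 15.7, 10.6, 11.6 and 11 CPM (1.13 ± 0.13). Ccn2, a matricellular growth factor, fell by 1.48 ± 0.17, from 17, 15 and 12.8 CPM to 5.84, 4.03, 6.63 and 4.94 CPM. Col15a1, a basement membrane collagen, was under both other groups, by -1.13 ± 0.21 against ND and -1.25 ± 0.20 against vehicle.

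Chemokine and cytokine genes were called higher about as often as all genes, with a higher median. Of 37 chemokines, cytokines and their receptors, 6 were higher (16.2% of the list, beside 15.7% of all genes) and 1 lower in DTMB livers, with a median of 0.55 beside 0.01 over all genes. There were 15 higher in vehicle livers. Cxcl1, a neutrophil attractant, had 0.232, 0.326 and 0.533 CPM in ND and 1.26, 1.31, 1.30 and 1.44 CPM in DTMB livers (1.87 ± 0.39, adjusted p = 3.95e-03), and was under vehicle livers (-1.21, adjusted p = 0.0301). The interferon-inducible Cxcl10 rose by 1.68 ± 0.40, a call lost with limma-voom (1.63, adjusted p = 0.0724), and Il18 by 0.85 ± 0.13. Il1b, which encodes interleukin-1 beta, was lower, with 1.87, 0.518 and 1.23 CPM in ND and 0.377, 0.362, 0.395 and 0.220 CPM in DTMB livers (-1.84 ± 0.42, adjusted p = 6.84e-03). Ccl2, the monocyte attractant, had 0.263, 0.249 and 0.276 CPM in ND and 0.593, 0.242, 0.214 and 0.406 CPM in DTMB livers, overlapping groups (0.47 ± 0.52, adjusted p = 0.547), beside 1.10 to 3.58 CPM in vehicle livers.

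Of 38 genes that act in Toll-like receptor and NF-kB signalling, 1 was higher and 4 lower (2 without ND replicate 1 or DTMB replicate 3) in DTMB livers, with a median of -0.07, and 12 were higher and 1 lower in vehicle livers. The receptor gene Tlr12 fell by 0.88 ± 0.18 and Bcl3, a nuclear IkB protein, by 0.66 ± 0.15. Rel, an NF-kB subunit, fell by 0.67 ± 0.20 and lost the call without ND replicate 1 (-0.40), DTMB replicate 1 (-0.62) or DTMB replicate 3 (-0.65). Ly96, a Toll-like receptor partner, rose by 0.59 ± 0.18 and lost the call without ND replicate 1 or 2 or DTMB replicate 3 or 4 (0.44 to 0.60).

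Macrophage genes were mixed. Of 26 genes of lipid-associated macrophages, the scar- and fat-associated state of steatohepatitis, 6 were higher and 2 lower than in ND livers (median 0.35), beside 19 higher and 2 lower in vehicle livers (median 1.37), and 11 were lower in DTMB than in vehicle livers, or 18 with scaling by library size alone. The 6 rises were 2 without ND replicate 1 or ND replicate 3. Atp6v0d2, a proton pump subunit, rose by 2.53 ± 0.34, from 0.403, 1.78 and 1.43 CPM to 6.67, 6.62, 6.21 and 8.12 CPM. This gene is also in the female-biased list. It was 2.26 above ND in vehicle livers and did not pass the direct test (0.28 ± 0.28, adjusted p = 0.527). The lysosomal protease Ctsb rose by 0.36 ± 0.07. Cd9, a tetraspanin, fell by 1.14 ± 0.10, from 18.8, 23.6 and 19.1 CPM to 9.85, 9.18, 8.94 and 9.16 CPM. Of 22 Kupffer cell and general macrophage genes 2 were higher and 1 lower (9.09% and 4.55%, beside 15.7% and 13.5% of all genes). The summed list was 414.2 to 548.3 CPM in ND and 488 to 642.9 CPM in DTMB livers, overlapping ranges.

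**Figure D4:**
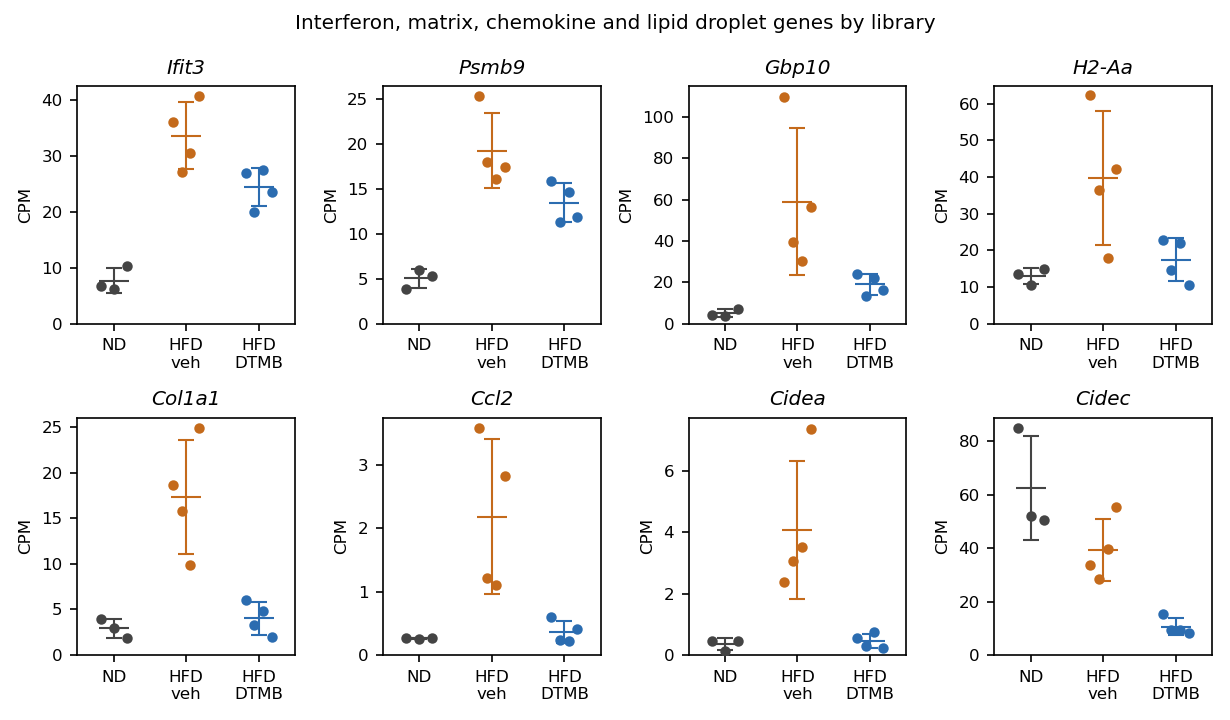
CPM of 8 genes of interferon response, antigen presentation, matrix, chemokines and lipid droplets in each library of the 3 groups, on linear axes from 0; points are libraries, the horizontal mark is the group mean and the bars are 1 SD. Ifit3, Psmb9 and Gbp10 stand above ND in the DTMB livers, H2-Aa, Col1a1, Ccl2 and Cidea overlap ND, and Cidec lies under ND.

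Endothelial genes were lower. Of 20 tested, 8 were lower and none higher in DTMB than in ND livers, with a median of -0.34, and the summed list was 298.6 to 348.4 CPM in ND and 213.4 to 278.9 CPM in DTMB livers. Vehicle livers reached into both ranges, at 228 to 335.6 CPM, with 4 genes lower and 1 higher, and 1 gene was lower in DTMB than in vehicle livers. With scaling by library size alone the vehicle livers had 1 lower and 1 higher, and 5 genes were lower in DTMB than in vehicle livers. Kdr, the vascular endothelial growth factor receptor of sinusoids, had 34.6, 32.6 and 35.5 CPM in ND and 20.3, 15.6, 19.3 and 21.4 CPM in DTMB livers (-0.84 ± 0.14, adjusted p = 9.60e-04). The endothelial and stellate transcription factor Gata4 and the scavenger receptor Stab1 fell by 0.60 ± 0.12 and 0.64 ± 0.16. Without ND replicate 1, 5 were called, and without the acinar libraries 1 was. Stellate cell and portal fibroblast genes, in contrast, gave 1 higher and 2 lower of 19 (5.26% and 10.5%, beside 15.7% and 13.5% of all genes). Their sums were 297.2 to 324.5 CPM in ND and 295.8 to 324.3 CPM in DTMB livers. Lymphocyte genes gave 1 lower of 23 (4.35%, beside 13.5% of all genes). Of 5 neutrophil genes tested none was called.

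Cytochrome P450 genes of drug metabolism differed in both directions, 16 of 35 higher and 9 lower than in ND livers, with a median of 0.15, beside 9 higher and 11 lower in vehicle livers. The vehicle split turned, under scaling by library size alone, to 13 higher and 6 lower. Without the acinar libraries 9 were higher and 4 lower, and the falls were 3 without ND replicate 1 or 2 and 5 without DTMB replicate 2. Cyp3a11, the main drug-oxidising P450 of mouse liver, had 3157, 4402 and 3409 CPM in ND and 562, 395, 940 and 712 CPM in DTMB livers (-2.49 ± 0.27, adjusted p = 6.82e-05). DTMB and vehicle livers did not pass the test for it (-0.39 ± 0.24, adjusted p = 0.304). Cyp2e1, the ethanol- and ketone-oxidising P450, rose from 8454, 7613 and 8490 CPM to 13347, 14753, 12941 and 15542 CPM (0.79 ± 0.10) and was above vehicle livers (0.36 ± 0.09, adjusted p = 0.0227), a call lost with scaling by library size alone (0.21, adjusted p = 0.0634).

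Conjugation and antioxidant genes were split evenly, 9 of 37 higher and 9 lower (24.3% each, beside 15.7% and 13.5% of all genes). Ugt1a9, a glucuronosyltransferase, fell by 2.31 ± 0.19, from 146, 105 and 110 CPM to 28.5, 19.3, 27.0 and 22.6 CPM, and lay under vehicle livers too (-0.90 ± 0.17, adjusted p = 0.0120). The glutathione transferase Gsta3 and the carboxylesterase Ces1g rose by 0.95 ± 0.08 and 0.95 ± 0.09. Exons that the Ugt1a genes share may let their reads be counted for more than one of them.

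Bile acid genes had 9 of 25 higher and 4 lower. Akr1c6, a steroid dehydrogenase, rose from 227, 285 and 402 CPM to 932, 1176, 1338 and 1364 CPM (1.98 ± 0.18), and the bile acid and drug uptake carrier Slco1b2 rose by 1.14 ± 0.12. Abcb4, the phospholipid exporter of the canaliculus, fell by 0.59 ± 0.10 and the basolateral exporter Abcc4 by 1.78 ± 0.33. Cyp7a1, the rate-limiting enzyme of bile acid synthesis, was called in vehicle livers (1.42) and not in DTMB livers (0.50 ± 0.48, adjusted p = 0.477).

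Genes that differ between male and female liver through growth hormone signalling were called in both directions. Of 29 male-biased genes, 7 were higher and 7 lower in DTMB than in ND livers (median 0.15), beside 3 higher and 11 lower in vehicle livers (median -0.53). The 7 rises were 4 without ND replicate 1, ND replicate 3 or DTMB replicate 4, and the 7 falls were 4 without ND replicate 2. The direct test found 15 higher and none lower in DTMB than in vehicle livers, or 10 higher and 1 lower with scaling by library size alone. Hsd3b5, a male-specific steroid dehydrogenase, had 3.56, 6.49 and 10.7 CPM in ND, 35.5, 86.8, 72.3 and 88.6 CPM in DTMB and 0.279 to 20.1 CPM in vehicle livers. It was higher than in ND (3.36 ± 0.93, adjusted p = 0.0178), a call lost without ND replicate 1 (3.02) or ND replicate 2 (3.31), and higher than in vehicle livers (2.92 ± 0.81, adjusted p = 0.0377). Bcl6, a repressor of female-biased genes, had 12.4, 9.92 and 6.99 CPM in ND and 64.4, 25.9, 26.7 and 45.2 CPM in DTMB livers (2.05 ± 0.37) and differed from vehicle (1.36 ± 0.32, adjusted p = 0.0222). Of 28 female-biased genes, 9 were higher and 11 lower (7 without ND replicate 1), so that the list held falls as well as the rise of Cyp2b9.

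Acute phase genes, made by hepatocytes under cytokine signals, had 9 of 18 higher and 1 lower, with a median of 0.70, beside 11 higher and 1 lower in vehicle livers; 3 were called higher without the acinar libraries. Saa1, a serum amyloid, had 19.4, 15.7 and 14.5 CPM in ND and 72.5, 381, 89.7 and 41.6 CPM in DTMB livers (3.15 ± 0.69), with DTMB replicate 2 far above the others and a difference of 2.02 without it. Serpina3n rose by 1.06 ± 0.11 and Saa4 by 2.29 ± 0.22, and the lipocalin gene Lcn2 by 2.48 ± 0.50. Hamp, which encodes the iron hormone hepcidin, fell from 713, 605 and 236 CPM to 30.4, 149, 77.5 and 52.2 CPM (-2.75 ± 0.61, adjusted p = 5.37e-03). Reads of Saa1 and its near copy Saa2 may be split.

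Genes of the other secreted liver proteins had 11 of 36 higher and 3 lower, with 7 higher without ND replicate 1 and 1 without the acinar libraries. F11, a coagulation factor, rose by 0.77 ± 0.10. Apoa4, an apolipoprotein of triglyceride-rich particles, had 1693, 2307 and 1491 CPM in ND and 939, 382, 695 and 576 CPM in DTMB livers (-1.50 ± 0.27) and was under vehicle livers (-1.14 ± 0.25, adjusted p = 0.0184).

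Of 71 nuclear-encoded genes of the respiratory chain, 16 were higher and 2 lower in DTMB than in ND livers, with a median of 0.14. These are 22.5% and 2.82% of the list, beside 15.7% and 13.5% of all genes. In vehicle livers 15 were lower and none higher (median -0.14), and with scaling by library size alone this was 4 higher and 5 lower. DTMB livers were above vehicle livers at 35 of the 71, and at 13, with 2 lower, under that scaling. The complex III subunit gene Uqcrq had 199, 200 and 194 CPM in ND and 242, 263, 284 and 303 CPM in DTMB livers (0.47 ± 0.09), and the complex I genes Ndufb3 and Ndufs8 rose by 0.55 ± 0.09 and 0.38 ± 0.08. Atp5b, a subunit of the ATP synthase, fell by 0.24 ± 0.06. The 16 rises were 0 without the acinar libraries, 8 when only the compared groups were fitted, 8 with no count filter, and 4 to 6 without ND replicate 1, ND replicate 3, DTMB replicate 3 or DTMB replicate 4. Of the 13 genes on the mitochondrial genome 3 were lower (1 without ND replicate 1, ND replicate 2 or DTMB replicate 1, and 5 with scaling by library size alone), led by ND5 (-0.58 ± 0.09).

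Haemoglobin and other red cell genes were higher, 7 of 8 with a median of 1.54, beside 1 of 8 in vehicle livers. The list summed to 466.7, 373.4 and 352.3 CPM in ND livers and to 670.4, 1828, 815.3 and 614 CPM in DTMB livers, so all DTMB libraries were above all ND libraries and DTMB replicate 2 stood apart. Hbb-bs had 213, 645, 307 and 229 CPM in the DTMB libraries, in the same order, and 141, 111 and 105 CPM in ND (1.55 ± 0.32, adjusted p = 3.67e-03). None of the 7 calls was made without the acinar libraries, and 4 were made without ND replicate 2 or ND replicate 3. The sources used here do not give the amount of blood left in the tissue, and its part was not tested.

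Cell cycle genes were called higher than in ND livers no more often than all genes. Of 39, 5 were higher (12.8%, beside 15.7% of all genes) and none lower, with a median of 0.41. Vehicle livers had 20 higher and 1 lower (median 1.31). In DTMB livers 9 were lower and 1 higher than in vehicle livers. The 5 rises were 3 without ND replicate 1 or ND replicate 3 and 2 without DTMB replicate 3. E2f1, a transcription factor of S-phase entry, had 1.5, 1.42 and 1.6 CPM in ND and 2.97, 3.16, 3.51 and 2.37 CPM in DTMB livers (0.99 ± 0.15). Tk1, a nucleotide kinase, rose by 0.82 ± 0.20.

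A set of genes was called in DTMB livers with the same sign against both ND and vehicle livers, and 6 of them were taken by the smallest p against vehicle. Both contrasts use the same DTMB libraries, so the calls against ND and against vehicle are not independent. Hr, a nuclear corepressor, had 4.60, 3.53 and 3.00 CPM in ND, 2.52 to 2.93 CPM in vehicle and 0.737, 0.383, 0.642 and 0.643 CPM in DTMB livers. It was 2.62 ± 0.21 lower than ND, that is -2.62 (adjusted p = 1.40e-05), and -2.14 ± 0.20 against vehicle (adjusted p = 1.43e-03). Spry4, an inhibitor of receptor tyrosine kinase signalling, had 1.38, 1.94 and 2.13 CPM in ND, 2.90 to 3.82 CPM in vehicle and 8.03, 9.36, 12.3 and 7.35 CPM in DTMB livers (2.35 ± 0.21 against ND, 1.51 ± 0.18 against vehicle). Sh3pxd2a, a podosome scaffold, had 45.4, 45.1 and 47.9 CPM in ND and 29.8, 33.5, 32.9 and 28.5 CPM in DTMB livers (-0.56 ± 0.08), with vehicle livers at 51.4 to 60.0 CPM. Dsp, the desmosome protein desmoplakin, fell by 0.78 ± 0.09. The other 2 were Retreg1 and Selenos, described with the ER genes, whose vehicle livers lay on the other side of ND (-0.58 and -0.31).

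Other genes that led the diet or compound contrasts in earlier results of these data did not pass the test between DTMB and ND livers. Wwtr1, which encodes the Hippo pathway coactivator TAZ, had 21.3, 18.1 and 19.6 CPM in ND, 19.3, 18.9, 22.3 and 19.1 CPM in DTMB and 29.2 to 34.8 CPM in vehicle livers. Its difference from ND was 0.02 ± 0.09 (adjusted p = 0.919) and from vehicle -0.72 ± 0.08 (adjusted p = 4.10e-03). Fam129b (0.42, adjusted p = 0.0647), Acod1 (0.83, adjusted p = 0.638), Sprr1a (2.41, adjusted p = 0.260), Scara5 (1.59, adjusted p = 0.0555) and Tff3 (1.32, adjusted p = 0.126) were not called against ND either. A miss of the threshold does not show equality, and the SE of Sprr1a, at 1.51, and of Acod1, at 1.16, are wide. Without ND replicate 1 Scara5 was called, at 3.12.

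A few of those genes lay between the 2 other groups. Anxa2, a membrane-binding annexin, had 7.20, 7.75 and 6.82 CPM in ND, 13.1, 10.2, 13.4 and 9.72 CPM in DTMB and 24.7 to 48.1 CPM in vehicle livers, with no overlap (0.68 ± 0.20 against ND, adjusted p = 0.0223). Map3k5, a stress-activated kinase, had 53.2, 54.4 and 56.1 CPM in ND, 41.6, 49.6, 45.5 and 47.7 CPM in DTMB and 25.4 to 30.3 CPM in vehicle livers (-0.24 ± 0.08, adjusted p = 0.0386). Rapgef4, a cAMP-activated exchange factor, was 0.33 ± 0.10 lower than ND, that is -0.33 (adjusted p = 0.0325). These 3 calls against ND were lost without single libraries: Anxa2 without ND replicate 1 or 3 or DTMB replicate 3 (0.60 to 0.65), Map3k5 without any one ND library or DTMB replicate 1 or 3 (-0.28 to -0.20), and Rapgef4 without any one ND library or DTMB replicate 2 or 3 (-0.36 to -0.25). Their differences from vehicle livers were -1.54, 0.77 and 0.73.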

How the data were processed

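PolyA RNA of whole liver was sequenced from strand-marking libraries, per the labels' protocols. The authors deposited a table of unnormalized, whole-number counts for 45777 genes, of which 22090 had no count in the cohort. The submitters' processing notes name HISAT2 2.1.0, StringTie 2.1.3b, Trimmomatic 0.38, FastQC 0.11.7 and the build mm10. Their roles and the counting of reads shared between near-identical genes are not stated here, so single members of families such as Cyp2b, Cyp3a, Cyp4a, Gbp, Saa and the globins are uncertain. Of the IDs, 45679 matched the GRCm38.p6 RefSeq table.

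All 11 libraries of the cohort were fitted in edgeR 4.0.16 (R 4.3.3): filterByExpr, TMM, and the quasi-likelihood F test, with Benjamini-Hochberg adjustment over 15597 genes. The SE is the log2 fold change over the root of F. Counts were simulated for 15334 genes, 200 of them changed. The fit recovered 19.4% of 1.5-fold, 65.7% of 2-fold and 92.4% of 4-fold changes, with 4 false calls.

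The members and the gene lists were chosen with earlier results of these data known. Named genes are, by size, the top 8 rises and top 8 falls of called, non-overlapping genes with a mean of at least 1 CPM, up to 3 called members of smallest p per list with up to 2 of the other direction, the leading genes of earlier results, and 6 called with the same sign against both other groups. Other list members, promoters and known marker genes were named after their values were seen, and some genes of the rule are not reported here. Libraries of the same number did not show as pairs: the correlation of their deviations from group means was -0.44 to 0.34. Within a group, any 2 libraries differed beyond sampling noise (chi-square per degree of freedom at least 26.1). Other settings were DESeq2 1.42.0, limma-voom 3.58.1 with quality weights, RLE factors, library size alone, no count filter, CPM above 1 in 3 libraries, the compared groups only, a 2-fold cutoff, a replicate block, each library left out, and the acinar libraries (list sum above 100 CPM) left out.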

Additional observations from a re-analysis of the deposited data

Results flagged for a closer look

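In the group of 4 DTMB livers, 1 library stood further from the other 3 than Dixon's 95% critical value allows for 11 of the 153 measures tested, and chance alone gives about 1 in 20. DTMB replicate 2 was the high library for Saa1, at 381.3 CPM beside 41.55 to 89.72 CPM, for Npas2, at 1.409 beside 0.9167 to 0.9648 CPM, and for the summed red cell list, at 1828 beside 614 to 815.3 CPM. The same library was high for the adipocyte genes Adipoq, at 3.241 beside 0.1016 to 0.3786 CPM, and Plin1, at 1.208 beside 0 to 0.1977 CPM. DTMB replicate 3 was high for the summed pancreatic acinar list, at 2278 beside 13.12 to 22.58 CPM, and for Wwtr1, at 22.3 beside 18.91 to 19.29 CPM, and low for Abcb4, at 296.4 beside 366 to 377.7 CPM. DTMB replicate 1 was high for Cidec, at 15.35 beside 8.243 to 9.382 CPM, and for Stab1, at 18.28 beside 14.07 to 14.63 CPM, and low for Pdia3, at 444.2 beside 506.6 to 519 CPM. Each of these values remained in the fit, and the part of the acinar, adipocyte and red cell transcripts in the results was not tested.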

How the results depend on the processing

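The count of genes differing between DTMB and ND livers was 872 (530 higher, 342 lower) with a 2-fold cutoff and 1022 (546 higher, 476 lower) without the 5 libraries above 100 CPM of acinar transcripts, which leaves 6 libraries, 1 of them ND. Vehicle against ND gave 1139 and 655 under these settings, and DTMB against vehicle gave 277 and 0 by edgeR, where 2182 genes had an unadjusted p under 0.05. DTMB against vehicle gave 3028 genes with DESeq2. Leaving out each library of the groups compared in turn gave 483 to 2562 genes for DTMB against vehicle and 1590 to 2444 genes higher, of 3154 to 4514 in all, for DTMB against ND.

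With a replicate block, 3561 genes differed between DTMB and ND livers and 1225 between DTMB and vehicle livers. Same-numbered libraries share only a number. Of the genes named in the text, Retreg1, Map3k5, Anxa2, Ly96 and Atp5b were not called under the block, and the genes higher than in ND were 5 for the nuclear respiratory chain list, 3 for lipid-associated macrophages and 3 for the cell cycle.

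Of the 127 called genes named, 118 kept the call in every fit that left out 1 ND or DTMB library. With limma-voom the GTPases gave 3 higher, the chemokines and cytokines 3 and the cell cycle list 2; with only the compared groups the amino acid list gave 5 higher, fatty acid oxidation 3 and the cell cycle 2; and with DESeq2 the matrix list gave 5 and the cell cycle 8. With limma-voom the calls of Cyp2b9, Hao2, Cxcl10 and Gbp7 were lost, with no count filter those of Retreg1 and Map3k5, and with only the compared groups those of Retreg1 and Ly96. Without the acinar libraries 39 were lost: Saa1, Saa2, Ppp1r3g, Sh3pxd2a, Retreg1, Selenos, Hao2, Map3k5, Anxa2, Rapgef4, Cxcl10, Gbp11, Gbp7, Col5a3, Col15a1, Il18, Il1b, Bcl3, Rel, Ly96, Ctsb, Kdr, Stab1, Lcn2, Hbb-bs, Hamp, Ndufb3, Ndufs8, Uqcrq, Atp5b, Shmt2, Gys2, E2f1, Tk1, Bcl6, Chac1, Clock, Cry2 and Nfil3. None of the 127 changed direction. The muscle genes reversed: without the acinar libraries the log2 difference was 6.47 for Myh1, 5.92 for Tnnt3 and 6.22 for Ckm, and with each library left out it ran from -13.42 to 6.09, from -7.48 to 5.54 and from -7.32 to 5.83. ND replicate 1 alone held most of their counts, and fitted values near 0 counts are no bound on a fold.

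Depth was 53647545 counts or more per library, with 3 or 4 libraries a group. On simulated counts 19.4% of 1.5-fold, 65.7% of 2-fold and 92.4% of 4-fold changes were recovered. Only 200 of 15334 genes were changed there, while 29.2% of genes were called in the data, so these shares need not hold for the data. Other group sizes were not simulated.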
